A study of Homo sapiens with 26 samples.

Results

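Ribosome footprints of K562 cells whose ribosomal RNA (rRNA) had been depleted with riboPools were compared between a cold and a heated elution. The comparison holds 4 of the 26 libraries of the series, 2 with cold and 2 with heated elution, and they were chosen by their titles and not by a measured value. K562 is an established human line from a chronic myeloid leukaemia with erythroid features. Per the labels, the cells were grown in serum-supplemented medium and lysed with cycloheximide, ribosome-protected fragments were made with RNase I, and pieces labelled 20 to 34 nt were kept for these libraries; the general protocol and the molecule label give other limits. The labels name no treatment or genotype beyond the line. The cold libraries carry the words no heat in their titles and cold elution in their depletion label, whereas the others carry the kit's name alone, so "heated" is read from the contrast of titles. The temperature, the duration and the exact step are not given in the sources used here. The background was 2 undepleted K562 libraries of the same table, labelled with the same fragment sizes.

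A ribosome shields a short stretch of the mRNA it translates from nuclease, and sequencing these stretches counts translating ribosomes per gene. Ribosomal RNA is cut by the same nuclease and its pieces crowd such libraries. riboPools are mixtures of biotinylated DNA probes complementary to rRNA, which are pulled out on streptavidin beads while the other RNA is kept. Mitochondria translate their own few mRNAs on separate ribosomes, and those footprints appear in the same libraries.

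Of 10023 genes tested, 4 (0.0399%) differed between the elutions at an adjusted p under 0.05 in edgeR's quasi-likelihood test. Cold elution gave lower counts of KCNH8, PTMA and HNRNPA2B1 and higher counts of MT-CO2. The sequences below are, for each of these genes and for PTMS, a paralog of PTMA described further on, the stretch of 30 nt of the coding sequence that holds the most purines (A or G). They are shown because the stretches of KCNH8 and PTMA are almost pure purine and that of MT-CO2 is not; this feature was chosen after the called genes were seen. Capitals mark purines, lower case marks pyrimidines, each sequence reads 5′ to 3′ along the mRNA, and positions are on GRCh38 from GENCODE release 29. All lie in coding exons.
KCNH8, chr3:19513027-19513056, plus strand: GAGGAAGAGGAGGAGGAGGGGGAGGAAGAG
PTMA, chr2:231711932-231711961, plus strand: GAAGAAGAGGAAGAAGGtGGGGAGGAAGAG
PTMS, chr12:6769608-6769637, plus strand: GAAGGAGAAGAAGGAGAAGGtGGAGGAGAA
HNRNPA2B1, chr7:26193636-26193665, minus strand: GGAGGAGGAAGAGGAGGAtAtGGtGGtGGA
MT-CO2, chrM:7588-7617, plus strand: GGcAcAtGcAGcGcAAGtAGGtctAcAAGA
The KCNH8 stretch is purine at all 30 positions, those of PTMA and PTMS at 29, that of HNRNPA2B1 at 26 and that of MT-CO2 at 19. Over all genes tested that have a coding sequence in the annotation, 183 (1.87%) held a stretch of 30 purines and 306 (3.13%) one of 29, while 2729 (27.9%), HNRNPA2B1 among them, had 26 to 28 purines in theirs.

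KCNH8 encodes a voltage-gated potassium channel of the ether-a-go-go family that is best known from neurons. Its counts were 95 and 63 in the cold libraries and 243 and 210 in the heated ones, although the cold libraries were the deeper. In CPM, the count scaled to the total of its library, this is 16.5 and 10.9 with cold elution against 106 and 71.5 with heated elution. Both cold libraries thus lay far below both heated ones. The mean was 13.7 ± 3.96 CPM with cold and 88.8 ± 24.4 CPM with heated elution (SD, n = 2 each). Heated elution was 6.49-fold higher by the ratio of means, and the fitted log2 fold change of cold over heated was −2.67 (SE 0.16, edgeR adjusted p = 8.96e-15).

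The undepleted libraries lay between the elutions for KCNH8, at 28.2 and 43.6 CPM. Tested against them in separate fits, where 8 of 8832 genes (0.0906%) were called for heated and 25 of 9841 (0.254%) for cold elution, KCNH8 was higher after heated elution by 1.28 on the log2 scale (SE 0.19, edgeR adjusted p = 1.88e-05) and lower after cold elution, the log2 value being −1.38 (SE 0.23, edgeR adjusted p = 3.92e-05). Both tests use the same undepleted libraries, which held only 32 and 45 KCNH8 counts. The call for cold elution was lost without undepleted library 2 (log2 value −1.04, edgeR adjusted p = 0.540), when thinned (edgeR adjusted p = 0.185) and with no filter on low counts, whereas the call for heated elution held in every alternative setting run for it; DESeq2 gave no adjusted p for the cold comparison. FastSelect, a kit that blocks the copying of rRNA, stood higher still, with 350 and 385 CPM in its 2 K562 libraries of the same table. The deposited tables give 1 count per coding sequence, so where the KCNH8 reads lay within it was not analysed here. The transcript spans chr3:19148454-19535646 on the plus strand, and its coding sequence of 3321 nt is 50.9% purine, so the stretch shown above is a local feature of it.

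PTMA encodes prothymosin alpha, a small and very acidic nuclear protein whose coding sequence is rich in GAA and GAG codons for glutamate. Its counts were 3211 and 3207 with cold elution and 1576 and 2001 with heated elution. In CPM these were 557 and 553 against 688 and 682. The pairs did not overlap. The values within each pair lay close, though 2 libraries measure a spread poorly. The means were 555 ± 2.41 and 685 ± 4.31 CPM (SD, n = 2 each), a ratio of 1.23 between heated and cold, and the fitted log2 fold change was −0.31 (SE 0.03, edgeR adjusted p = 1.97e-07).

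Set against the undepleted libraries, at 624 and 672 CPM, PTMA was lower after cold elution, where 0.112% of all genes were, by a log2 value of −0.23 (SE 0.05, edgeR adjusted p = 0.00614). This call was lost without undepleted library 1 (edgeR adjusted p = 0.0896), without undepleted library 2 (edgeR adjusted p = 0.852), when thinned (edgeR adjusted p = 0.308) and with no filter. After heated elution the log2 difference from undepleted was 0.077 (95% interval −0.014 to 0.17, edgeR adjusted p = 0.867). PTMA lies at chr2:231708516-231713536 on the plus strand, and 74.5% of its 333 nt of coding sequence are purines. It has many processed pseudogenes with near-identical sequence, so its level depends on how the authors placed reads that match several loci, which is not given in the sources used here.

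HNRNPA2B1 encodes an abundant nuclear RNA-binding protein of the hnRNP family that acts in splicing and RNA transport. Its levels were 2175.1 and 2163.1 CPM with cold elution and 2323.4 and 2279.9 CPM with heated elution. The groups did not overlap, but they lay close. With cold elution the mean fell by 5.76%, the fitted log2 fold change was −0.088 (SE 0.016), and edgeR's adjusted p was 0.00699. The undepleted libraries, at 2278.4 and 2247.3 CPM, stood between the elutions. This call was lost without any 1 of the 4 libraries, with an edgeR adjusted p of 0.0998 to 0.755.

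**Figure D1:**
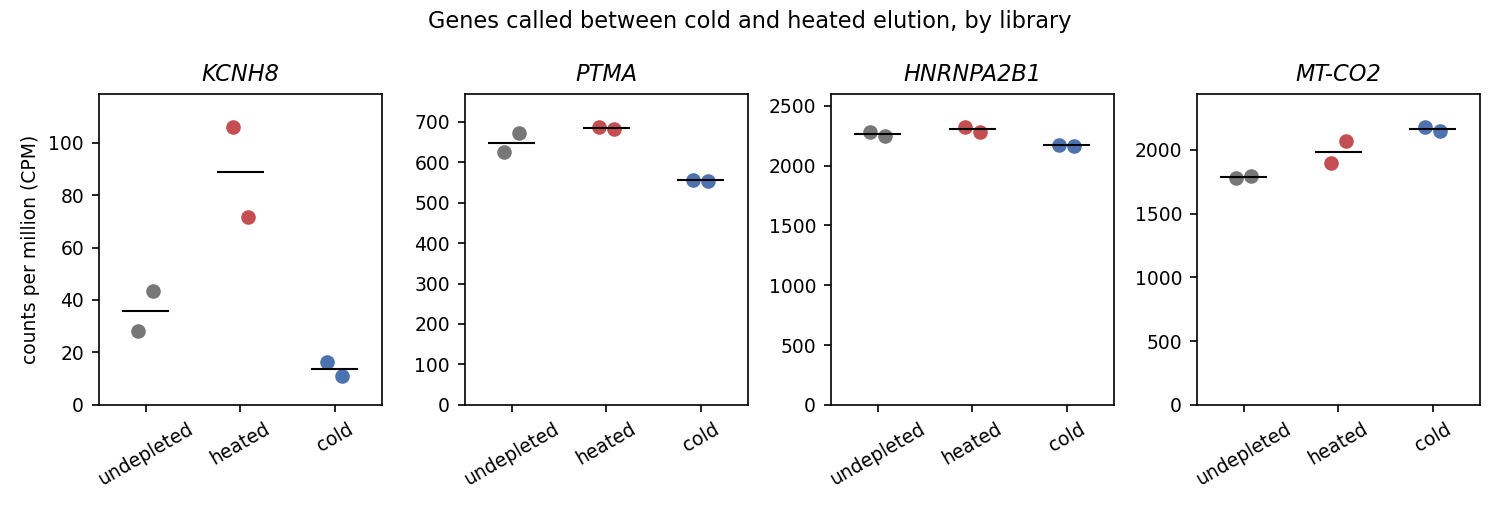
Depth-scaled counts (CPM) of the 4 genes called between the elutions, by library. Points are the 2 libraries of each group, lines are group means, and each vertical axis starts at 0; KCNH8 falls from 106 and 71.5 CPM with heated to 16.5 and 10.9 CPM with cold elution, while the other 3 genes shift by a small part of their level.

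MT-CO2 encodes subunit 2 of cytochrome c oxidase, the terminal enzyme of the respiratory chain. Its counts were 12575 and 12443 with cold elution and 4347 and 6083 with heated elution. In CPM these were 2180.3 and 2146.9 against 1896.7 and 2071.8. Both cold libraries were above both heated ones, and heated library 1 stood lowest. The mean was 9.04% higher with cold elution, and the fitted log2 fold change was 0.12 (SE 0.02, edgeR adjusted p = 0.00633). Without heated library 1 the log2 fold change was 0.060 and the call was lost (edgeR adjusted p = 0.844).

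The whole set of 13 mitochondrial mRNAs, which encode core subunits of respiratory complexes I, III, IV and of the ATP synthase, had fitted values on the higher side with cold elution. MT-CO2 was the only member called, where 0.00998% of all genes were called higher. At an unadjusted p under 0.05, 12 members were higher and none lower, against 2.61% higher among all genes tested. Here and below, the shares over all genes include genes of low count and were not matched for count. In 11 of the 13 both cold libraries lay above both heated ones, against 18.4% of all genes, and MT-ND5 and MT-CO3 overlapped. The median log2 fold change was 0.083, with a range of 0.066 to 0.12, beside −0.0013 over all genes. Since the 13 mRNAs come from 1 genome and are cut from long shared precursors, they are not independent of each other.

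**Figure D2:**
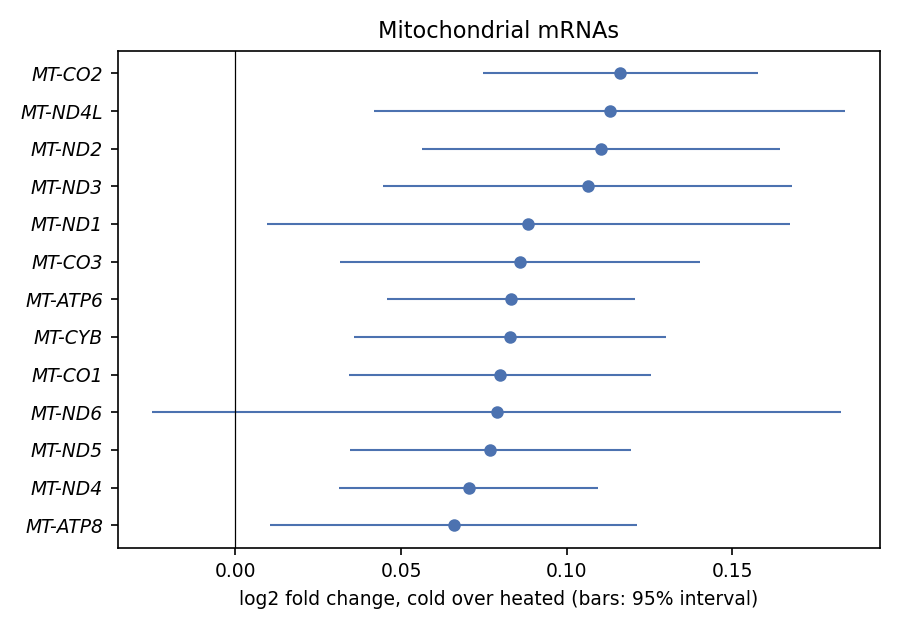
Log2 fold change of cold over heated elution for each of the 13 mitochondrial mRNAs (points) with its 95% interval (bars) from edgeR. The points lie between 0.066 for MT-ATP8 and 0.12 for MT-CO2, and the interval of MT-ND6 alone crosses 0.

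Among the complex IV genes, MT-CO1 was at 4200.8 and 4126.6 CPM with cold and at 3778.5 and 4065.0 CPM with heated elution, a log2 difference of 0.080 (SE 0.022, edgeR adjusted p = 0.356). MT-CO3 was at 3664.8 and 3438.9 CPM against 3184.7 and 3473.4 CPM, a log2 difference of 0.086 (SE 0.027, edgeR adjusted p = 0.559). In both, heated library 2 lay much nearer to the cold libraries than heated library 1 did. The ATP synthase gene MT-ATP6 was at 2018.5 and 1987.8 CPM against 1856.1 and 1912.1 CPM, with a log2 difference of 0.083 (SE 0.018, edgeR adjusted p = 0.136). MT-CYB, the mitochondrially encoded subunit of complex III, was at 1627.4 and 1588.6 CPM against 1465.6 and 1555.5 CPM.

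The complex I genes lay on the same side. MT-ND2 was at 1114.9 and 1119.1 CPM with cold and at 1004.4 and 1055.2 CPM with heated elution, a log2 difference of 0.11 (SE 0.03, edgeR adjusted p = 0.226). MT-ND4 was at 2199.1 and 2143.3 CPM against 1996.1 and 2119.5 CPM, a log2 difference of 0.070 (SE 0.019, edgeR adjusted p = 0.356). MT-ND6, which is encoded on the other strand, was the least abundant at 232 and 239 CPM against 217 and 226 CPM, and its interval ran from −0.025 to 0.18. MT-ATP8 with MT-ATP6, and MT-ND4L with MT-ND4, share bases, so reads there could be given to either gene, and nuclear copies of mitochondrial DNA can share reads with all of these genes.

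Together the 13 mRNAs took 2.28% and 2.22% of the counts of the cold libraries, 2.04% and 2.18% of the heated ones and 1.87% and 1.91% of the undepleted ones. The groups did not overlap and stood in the order undepleted, heated, cold. The exact two-sided permutation test of cold against heated over libraries gave p = 0.333, which is the smallest p that 2 against 2 libraries allow. Against undepleted libraries, 12 of the 13 were called higher after cold elution, where 0.142% of all genes were, with a median log2 fold change of 0.24. After heated elution 6 of the 13 were called higher, where 0.0793% of all genes were, with a median of 0.14. These comparisons share the undepleted libraries. For cold elution 4 of the 13 were called without undepleted library 1, 8 without undepleted library 2, 8 when thinned and 0 with no filter. For heated elution 2 were called without heated library 2, 3 without undepleted library 1, 2 when thinned and 1 with DESeq2. The size of the cold-heated difference rests on the heated libraries, since its median was 0.048 without heated library 1 and 0.15 without heated library 2.

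No nuclear gene listed for the same complexes was called. Of 37 nuclear complex I subunits, 13 were fitted higher and 24 lower, and the median was −0.024, where 49.5% of all genes were fitted higher; without heated library 2 the median was −0.0031. Of 35 nuclear subunits of complexes III, IV and V, 16 were fitted higher and 19 lower, and the median was −0.0074, which turned to 0.010 without heated library 2 and 0.00078 without cold library 1. The lowest was COX6B1, a complex IV subunit, at 411 and 404 CPM with cold and 433 and 461 CPM with heated elution (log2 fold change −0.14, SE 0.04, edgeR adjusted p = 0.356). The 77 mitochondrial ribosomal protein genes held 41 fitted higher and 36 lower, with no call and a median of 0.0062, which turned to −0.0053 without cold library 1 and −0.0010 without heated library 2. Whether the mitochondrial mRNAs differ from these nuclear lists was not tested.

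**Figure D3:**
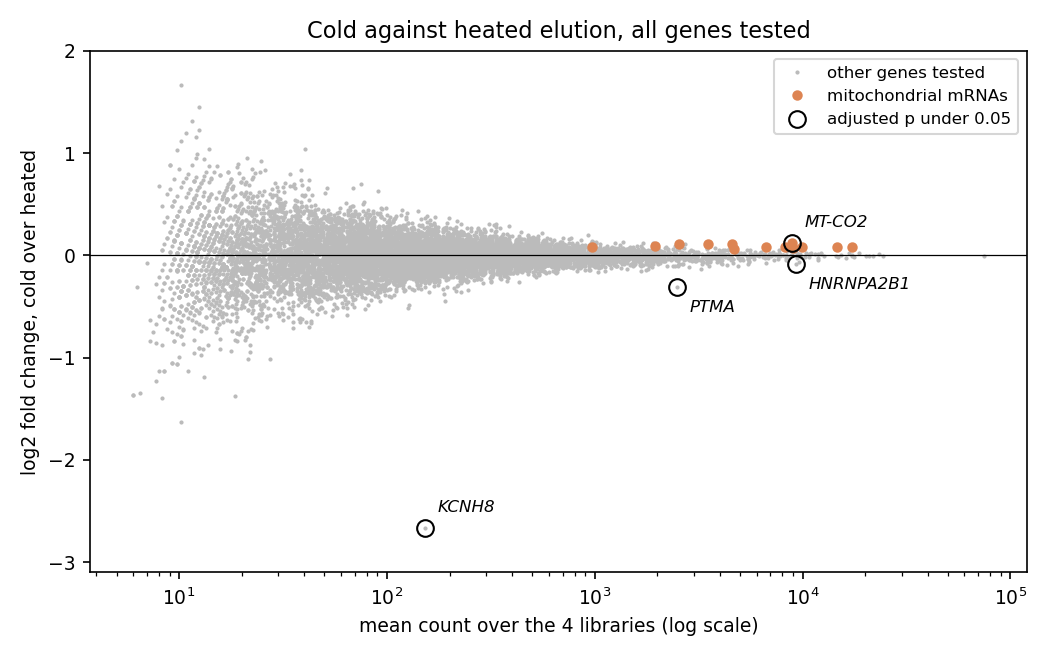
Log2 fold change of cold over heated elution against the mean count over the 4 libraries (log scale) for the 10023 genes tested. Open circles mark the 4 genes at an adjusted p under 0.05 and filled orange points the 13 mitochondrial mRNAs; KCNH8 at −2.67 stands apart from genes of like count, and the cloud narrows as counts grow.

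Most of the genes with the most purine-rich coding sequences were fitted lower with cold elution. Classes of purine content were set after the called genes had been seen, so the following is a description with no test. Among genes averaging 100 counts or more over the 4 libraries, 41 had a coding sequence of at least 65% purines, and 31 of them (75.6%) were fitted lower with cold elution, against 50.5% of all genes tested, with a median log2 fold change of −0.073. In the next class, 60 to 65% purine, 166 of 276 genes (60.1%) were fitted lower, with a median of −0.023. Below 60% the classes held 48.3% to 50.8% fitted lower, with medians between −0.0013 and 0.0050. PTMA is among the 41 and was the only 1 of them called. At an unadjusted p under 0.05, 8 of the 41 were lower and none higher, against 3.55% lower and 2.61% higher over all genes.

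Within the 41, both cold libraries lay below both heated ones in 16 genes and above them in 3, against 18.3% lower and 18.4% higher over all genes. For each of the 4 pairs of a cold and a heated library the median of this class, less that of all genes, was between −0.064 and −0.095. Between replicates it was 0.029 for cold 1 over cold 2 and −0.038 for heated 1 over heated 2, so replicate libraries differed in this class as well. For the 18 genes of the class averaging 500 counts or more, the cold-heated pairs stood at −0.019, −0.065, −0.050 and −0.085 and the replicate pairs at 0.033 and 0.0012, so cold 1 over heated 1 then lay within the size of a replicate difference. The class median lay between −0.067 and −0.090 over the 14 alternative settings. Against undepleted libraries the class median was −0.097 for cold and −0.0040 for heated elution, and −0.042 and 0.013 among the 18 genes.

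**Figure D4:**
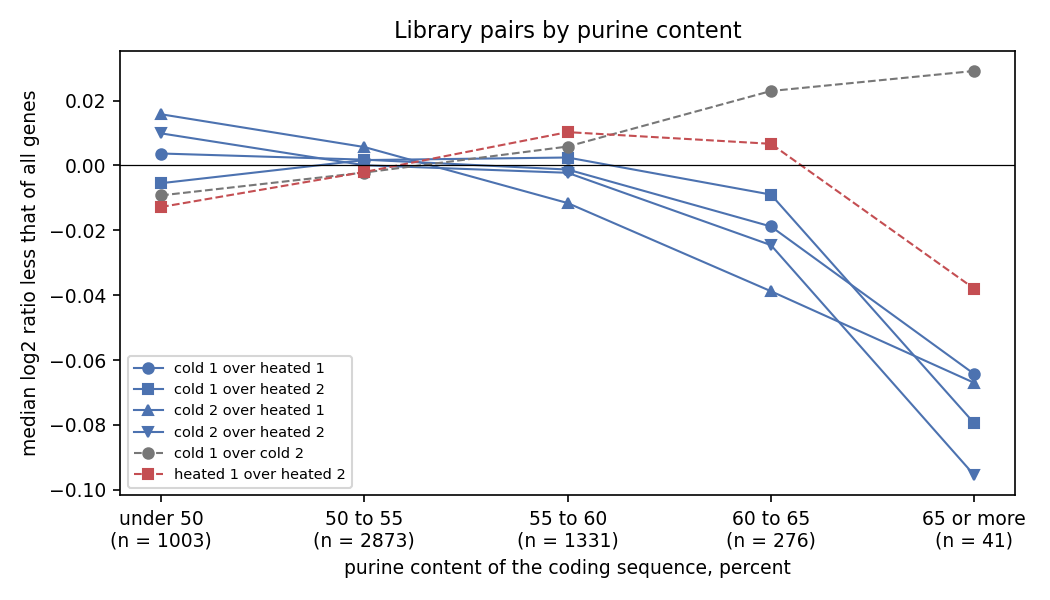
Median log2 ratio of 2 libraries by class of purine content of the coding sequence, less the median of all genes, for genes averaging 100 counts or more (n genes below each class). Solid lines are the 4 cold-heated pairs and dashed lines the 2 replicate pairs; at 65% or more the cold-heated pairs lie between −0.064 and −0.095, and the replicate pairs at 0.029 and −0.038.

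PTMS, parathymosin, is a paralog of PTMA with 80.4% purines, the highest share among the 41, and the same kind of acidic coding sequence. Its counts were 231 and 241 with cold and 133 and 158 with heated elution, or 40.1 and 41.6 against 58.0 and 53.8 CPM. The groups did not overlap, yet the log2 fold change of −0.45 (SE 0.11) did not pass (edgeR adjusted p = 0.211). RPL41, whose short coding sequence is 77.3% purine, encodes a highly basic ribosomal peptide of lysines and arginines and was at 422 and 410 CPM against 462 and 453 CPM (log2 fold change −0.14, SE 0.04, edgeR adjusted p = 0.356).

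The class also holds several genes for charged chromatin proteins. HMGN2, a nucleosome-binding protein, was at 391 and 381 CPM with cold and 429.8 and 427 CPM with heated elution, and HMGN1, its relative, at 131 and 131 CPM against 136 and 153 CPM. HMGA1, an architectural chromatin protein, was at 1013 and 1011 CPM against 1061 and 1087 CPM. None of these passed, with edgeR adjusted p of 0.325, 0.765 and 0.413. The class was not uniform: HMGB1 had a log2 fold change of −0.014, the acidic histone chaperone ANP32A one of −0.018, and NUCKS1, a chromatin-associated phosphoprotein, one of 0.066. HMGN2, HMGB1 and RPL41 also have many processed pseudogenes, so their counts carry the same doubt as that of PTMA. KCNH8 is not in this class, and HNRNPA2B1, with 62.6% purines, is in the next.

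Genes were also grouped by their best stretch of 30 nt. Among genes averaging 100 counts or more, 132 held a stretch made of purines alone, and 80 of them (60.6%) were fitted lower with cold elution, with a median log2 fold change of −0.021. Of the 775 genes whose best stretch held at most 22 purines, 46.1% were fitted lower, with a median of 0.0072. At −2.67, KCNH8 was far from the median of the genes with a stretch like its own.

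Base composition went with the fold change across all genes too. In genes averaging 100 counts or more, the Spearman correlation of the log2 fold change with GC content was −0.18 over 5524 genes. That with G content was −0.21, whereas that with A content was 0.11. With purine content, A and G together, it was only −0.045, so the lean of the most purine-rich classes was not a trend across all genes. With coding length it was 0.012. These genes share libraries, so the values describe the libraries and carry no p. The fifth of genes lowest in GC had a median of 0.031 and the fifth highest in GC one of −0.024. In the 4 cold-heated pairs the correlation with GC ran from −0.082 to −0.19. Between replicates it was −0.10 for cold 1 over cold 2, −0.025 for heated 1 over heated 2 and 0.064 for undepleted 1 over undepleted 2.

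The reference held 4 rRNA sequences, the 2 mitochondrial ones and those of 5S and 5.8S rRNA, and the longest exact run that a coding sequence shared with any of them, in either orientation, was counted. The 150 genes sharing at least 14 nt had a median log2 fold change of −0.0013, the 1649 sharing 12 or 13 nt one of 0.0042 and the 3725 sharing less one of −0.0041. Of the called genes, KCNH8 shared a run of 14 nt and so is in the first of these classes. HNRNPA2B1 shared one of 12 nt, and PTMA and MT-CO2 none of at least 12 nt. The 18S and 28S rRNA sequences were not among the 4, so runs shared with them were not searched. Whether likeness to rRNA plays a part was not tested.

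No listed gene of the cytosolic translation machinery was called. The medians of the ribosomal protein lists stayed near that of all genes, though more large-subunit genes lay lower than higher with cold elution. Of 47 large-subunit ribosomal protein genes, 9 were lower and 2 higher at an unadjusted p under 0.05 (3.55% and 2.61% of all genes). Both cold libraries lay below both heated ones in 17 and above them in 7, against 18.3% and 18.4% of all genes. The median log2 fold change of the list was −0.011. It turned to 0.00063 when the 4 libraries were thinned to the smallest total among them and was −0.0059 without heated library 1. The 33 small-subunit genes had a median of −0.0054. It ranged from −0.0099 without heated library 2 to 0.00044 without heated library 1 and became 0.00035 with no filter on low counts. At an unadjusted p under 0.05, 2 of the 33 were lower and 2 higher, beside the same 3.55% and 2.61%. Both cold libraries lay below both heated ones in 9 of these small-subunit genes and above them in 7, beside the same 18.3% and 18.4%. RPS14 was the lowest of these, at 1273.9 and 1266.3 CPM with cold and 1388.3 and 1314.7 CPM with heated elution (log2 fold change −0.089, SE 0.025, edgeR adjusted p = 0.356). The highest large-subunit member was RPL39 at 551 and 521 CPM with cold elution, with a heated mean of 504 ± 6.19 CPM (SD, n = 2). These genes have many pseudogenes, and the same doubt applies to their counts. The 8 elongation and termination factors had a median of 0.029 and a range of −0.019 to 0.065, with no call, and leaving out 1 library moved the median between 0.0044 (without cold library 2) and 0.051 (without heated library 2).

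Most replication-dependent histone transcripts were fitted lower with cold elution. Histones package DNA, and these mRNAs, made as DNA is copied, end in a stem-loop in place of a poly(A) tail. Of 47 transcripts tested, 34 were fitted lower and 13 higher with a median log2 fold change of −0.029, and none was called. Both cold libraries lay below both heated ones in 22, against 18.3% of all genes, and above them in 3, against 18.4%. At an unadjusted p under 0.05, 10 were lower and none higher, where 3.55% and 2.61% of all genes were. HIST1H2BB was the lowest averaging 100 counts or more, at 101 and 103 CPM with cold and 116 and 112 CPM with heated elution (log2 fold change −0.16, SE 0.07, edgeR adjusted p = 0.779). Without heated library 2, 29 of the 47 were fitted lower, with a median of −0.018, and without cold library 2 the median was −0.014. Near-identical histone copies share reads, so the members are neither independent nor fully separable.

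**Figure D5:**
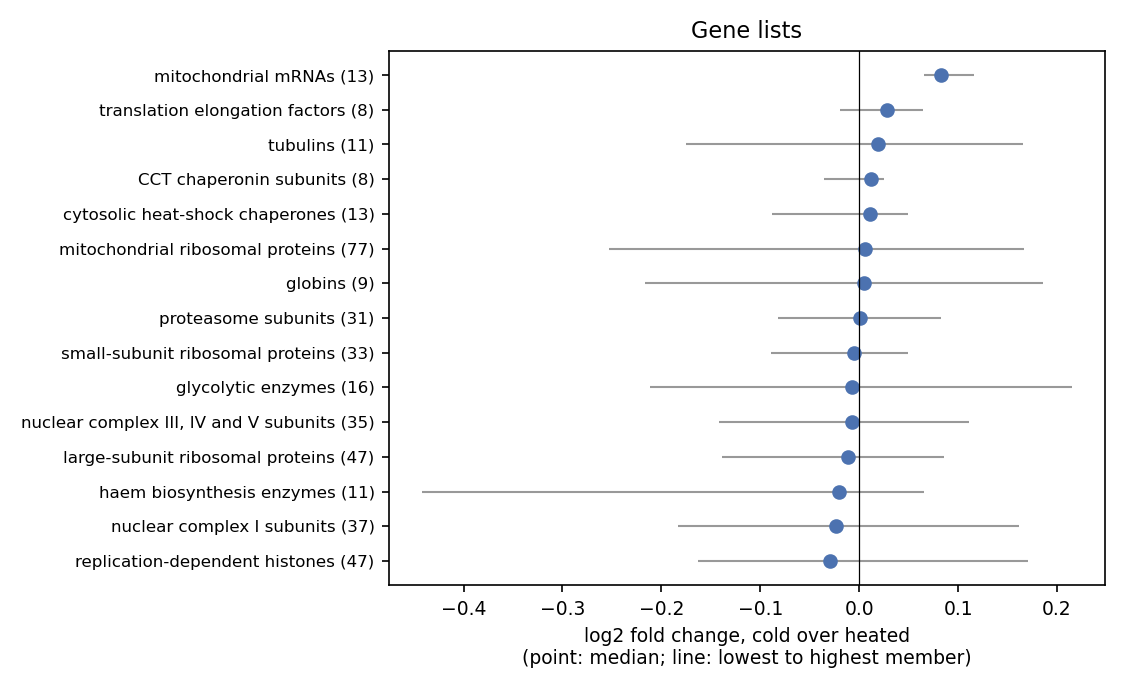
Log2 fold change of cold over heated elution for 15 gene lists, as the median (point) and the lowest and highest member (line), with the number of members tested in brackets. The mitochondrial mRNAs, with a median of 0.083, are the only list whose whole range lies on 1 side of 0; the lowest median is that of the histones at −0.029.

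Genes of the erythroid programme and of general housekeeping were described in the same way, and none was called. Of 9 globin transcripts tested, 7 were fitted higher and 2 lower, with a median of 0.0046. Without cold library 2 this became 3 higher and 6 lower with a median of −0.0056, and without cold library 1 the median was 0.032. HBG1, a fetal globin, was at 3961.3 and 4045.2 CPM with cold and 3940.8 and 3925.0 CPM with heated elution, and its close copy HBG2 can share its reads. HBZ, an embryonic globin, was at 778 and 782 CPM against 831 and 803 CPM (log2 fold change −0.068, SE 0.030, edgeR adjusted p = 0.779). The 11 haem biosynthesis genes had a median of −0.020, which moved between −0.0017 (without heated library 2) and −0.097 (without heated library 1). ALAS1, the housekeeping form of the first enzyme of the pathway, was at 32.4 and 36.4 CPM against 42.8 and 37.1 CPM.

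The 16 glycolytic enzymes had a median of −0.0068, the 31 proteasome subunits one of 0.00092, the 8 subunits of the CCT chaperonin one of 0.012, the 13 heat-shock chaperones one of 0.011 and the 11 tubulins one of 0.019. With 1 library left out, the glycolytic median turned to 0.0094 (without heated library 1), the proteasome median to −0.0016 and the CCT median to −0.0068 (both without heated library 2) and the chaperone median to −0.0023 (without cold library 1); the tubulin median was 0.012 to 0.031. The CCT genes, whose products fold actin and tubulin, spanned only −0.036 to 0.025. HSPA1A, an inducible heat-shock chaperone, was at 602 and 641 CPM with cold and 673 and 648 CPM with heated elution (log2 fold change −0.089, SE 0.035, edgeR adjusted p = 0.764). TUBB6, a beta-tubulin isotype, was at 150 and 149 CPM against 161 and 174 CPM (log2 fold change −0.17, SE 0.06, edgeR adjusted p = 0.728).

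Outside the called genes no difference passed, and the largest that the rule for naming genes picks were in genes of fairly low count. The 10 genes furthest higher with cold elution, among those averaging 100 counts or more and no overlap of the groups, had log2 fold changes between 0.37 and 0.44. NFYB, a subunit of the CCAAT-binding factor NF-Y, was at 30.7 ± 2.43 CPM with cold elution (mean and SD, n = 2) and at 26.2 and 19.8 CPM with heated elution (edgeR adjusted p = 0.728). BCAR1, an adaptor protein of focal adhesions, was at 36.1 and 36.9 CPM against 27.5 and 26.6 CPM (edgeR adjusted p = 0.559), and JUN, a subunit of the transcription factor AP-1, at 28.3 and 28.3 CPM against 18.8 and 23.8 CPM (edgeR adjusted p = 0.764).

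On the lower side, the genes next to KCNH8 were CDC14A, a dual-specificity phosphatase, at 25.5 and 27.8 CPM with cold and 37.1 and 38.5 CPM with heated elution, and ACTR8, a subunit of the INO80 chromatin remodeller, at 30.5 and 23.6 CPM against 38.8 and 37.1 CPM. Their log2 fold changes were −0.51 (SE 0.13, edgeR adjusted p = 0.325) and −0.49 (SE 0.14, edgeR adjusted p = 0.392). ARL6IP4, a nuclear protein linked to splicing, had a mean of 49.8 ± 1.15 CPM against 64.1 ± 4.95 CPM (SD, n = 2 each, log2 fold change −0.36, SE 0.10, edgeR adjusted p = 0.356). The largest of these differences is well under that of KCNH8. Among the 10 genes furthest lower, the best stretch of 30 nt held 30 purines in KCNH8 and ARL6IP4 and 29 in PTMS and PHRF1. It held 28 in ACTR8 and EHMT1, 27 in ZNF445 and 23 in TBPL1 and AC011455.3, while CDC14A had no matched coding sequence.

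For most genes of adequate count the data bound the difference between the elutions. Among 5688 genes averaging 100 counts or more, the 95% interval of the fold change lay wholly within 1.5-fold in either direction for 5624 (98.9%) and within 1.2-fold for 2944 (51.8%). Among 1672 genes averaging 500 counts or more, 1624 (97.1%) had an interval within 1.2-fold. PTMA was not so bounded, as its interval of −0.37 to −0.24 on the log2 scale reaches beyond that fold. Over all genes tested, 618 (6.17%) had an unadjusted p under 0.05, of which 262 were higher and 356 lower with cold elution.

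The spread between 2 libraries, as the SD over genes of the log2 ratio after the counting variance was removed, was 0.062 ± 0.0035 (SD over the 4 cold-heated pairs, which share libraries). It was 0.026 for cold 1 against cold 2 and 0.053 for heated 1 against heated 2, over 5688 genes averaging 100 counts or more. KCNH8, averaging 152.75 counts, is among these genes and widens the cold-heated values, and the spread without it was not determined. It is not among the genes averaging 500 counts or more. At an average of 500 counts or more the cold-heated pairs averaged 0.038, and the replicate pairs stood at 0.019 and 0.023. The heated pair was thus the less alike of the replicate pairs, at either count minimum. By the scaled median absolute deviation the order was the reverse, at −0.091 for the heated and −0.057 for the cold pair. That measure follows the typical gene, whereas the counting variance taken off is a mean over genes, to which low counts add most. Neither the minus sign nor this order can therefore be read as a spread below counting. Chi-square over degrees of freedom was 1.086 for the cold pair and 1.076 for the heated pair, more than counting alone gives (p = 1.08e-09 and 1.68e-07 over 10247 and 9399 genes).

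Total counts were 5767500 and 5795774 in the cold libraries, 2291924 and 2936038 in the heated ones and 1135460 and 1031889 in the undepleted ones, so depth moves with the group. With every library thinned to the smallest total, KCNH8 and PTMA were still called, and MT-CO2 and HNRNPA2B1 were not. All 16 erythroid markers of K562 had at least 10 counts in every cold, heated and undepleted library, and their sum ranged from 15232.1 to 15487.8 CPM with cold, 15240.9 to 15319.4 CPM with heated elution and 15059.8 to 15467.7 CPM undepleted. The 7 T and B cell markers summed to at most 23.5 CPM in any of these libraries, with CD79A and MS4A1 at 0. Epithelial and fibroblast markers summed to at most 89.0 and 45.5 CPM, with CDH1, DCN and LUM at 0. Most of each sum came from a single gene that was clearly present. CD3D was at 18.4 and 22.1 CPM with cold and 19.2 and 15.7 CPM with heated elution. EPCAM was at 77.7 and 73.7 against 81.2 and 79.4 CPM, and COL1A2 at 35.5 and 34.0 against 32.3 and 42.6 CPM. As the labels do not say that the 2 libraries of a group came from separate cultures, p-values measure only the spread between these libraries, which may be technical. In bulk libraries such as these, fewer ribosomes on an mRNA and less of the mRNA cannot be told apart. The labels place the elution in the depletion and name no difference between the cells of the 2 elutions.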

How the data were processed

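The authors deposited whole-number counts per coding sequence, 1 transcript per row, with 19478 transcripts in the table, per the file headers. STAR and CASAVA 1.8 with GRCh38 are named per the submitters' processing notes; read filters, duplicates and multiply matching reads are not given in the sources used here. PCR copies of a read are not separate molecules, so intervals cover counting error and the spread between these libraries only. Counts of the 4 libraries were tested with edgeR 4.0.16 (R 4.3.3), TMM, filterByExpr at a minimum count of 10, the quasi-likelihood test and Benjamini-Hochberg adjustment over all genes tested, which leaves 2 residual degrees of freedom. Each elution was tested against undepleted in a fit of its own. DESeq2 1.42.0 was an alternative. No Ribo-Zero Plus library entered a fit. The procedure was tested on simulated data.

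Coding sequences came from GENCODE 29, which matched 97.51% of transcript identifiers with the same version and may not be the authors' annotation. Symbols of 15 listed genes were matched through RefSeq synonyms and 1 was not matched. A total of 62 rows carry a symbol found on more than 1 transcript.

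The members and lists were chosen with earlier results of these data known. Named genes are those called, the 10 largest rises and falls among genes averaging 100 counts or more and groups that do not overlap, the extremes of each list, the mitochondrial mRNAs and genes singled out earlier; genes of the purine class were named after their values were seen. Alternatives were another normalization or filter, DESeq2, robust estimation, leaving out each library, a replicate block, fits of 6 or 8 libraries and, added after seeing the data, thinning.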

Additional observations from a re-analysis of the deposited data

How the results depend on the processing

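KCNH8 and PTMA were called in 13 of the 14 alternative settings, MT-CO2 in 9 and HNRNPA2B1 in 4, and the sign of each held in all 14. The count of genes called between the elutions, 4, became 0 with no filter (456 at an unadjusted p under 0.05), 2 with DESeq2, 2 when thinned and 2 to 9 with a library left out. HIST1H2BK, MT-ATP6, MT-CO1, MT-CO3, MT-CYB and MT-ND5 joined without cold library 2, and KCNH8 and PTMA alone were called without heated library 1. With robust estimation 6 genes were called, MT-ATP6 and RPL19 added. Cold against undepleted had 25 calls, 0 with no filter (481 at an unadjusted p under 0.05), 10 when thinned and 7 to 24 with a library left out, the lowest without undepleted library 1. Heated against undepleted had 8 calls, 2 with DESeq2, 3 when thinned and 4 to 9 with a library left out, the lowest without heated library 2. The cause of these changes was not tested.

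The median of the mitochondrial mRNAs was 0.048 to 0.154 with a library left out. That of the large-subunit ribosomal proteins was −0.0081 with DESeq2 size factors, −0.0080 with total count scaling, −0.0057 with no filter, −0.0082 at a mean of at least 100 counts, −0.0077 with DESeq2, 0.00063 when thinned and −0.0116 to −0.0059 with a library left out. That of the small-subunit proteins was 0.00035 with no filter and −0.0099 to 0.00044 with a library left out. The spread between cold and heated libraries was 0.038 at a mean of at least 500 counts, and −0.065 by the scaled median absolute deviation. That minus sign cannot be read as less than counting predicts, since a mean counting variance is taken from a measure of the typical gene. The correlation with GC content over all genes tested, −0.12, was −0.14 to −0.075 with a library left out, −0.055 with no filter and −0.18 at a mean of at least 100 counts.

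With the replicate number as a block, 2 genes were called between the elutions (KCNH8 and PTMA), 21 for cold and 12 for heated against undepleted. The deviations of same-numbered cold and heated libraries correlated at 0.011 over 5688 genes. These deviations are mostly counting noise. Their SD was 0.114 in the cold and 0.175 in the heated pair, against 0.026 and 0.053 after the counting variance was removed. A correlation near 0 therefore cannot tell whether the numbers mark a pairing.

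The cold libraries held up to 2.53 times the counts of the heated ones, and genes under 100 counts have wide intervals.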

Other observations

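FastSelect libraries of the same table gave further levels of the genes described here, as values only. PTMA was at 641 and 626 CPM there, HNRNPA2B1 at 2237.6 and 2251.6 CPM, MT-CO2 at 1798.2 and 1698.3 CPM and PTMS at 52.7 and 63.9 CPM. The 13 mitochondrial mRNAs took 1.91% and 1.76% of the FastSelect counts.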
